A study of Salmo salar with 58 samples.

Results

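The gene tisb (GeneID 100195422) was followed in Atlantic salmon, Salmo salar, in samples of liver and of distal intestine taken 12 h after an acute exposure in vivo to low beauvericin, high beauvericin, low enniatin B or high enniatin B, or to the control treatment. It is 1 of the 26239 genes measured and was chosen by its GeneID with earlier results of these data known, so its own levels and differences are given as a description, with standard errors and without a test. Each tissue gave 5 low beauvericin libraries and 6 libraries for each of the other exposures and for the control, 58 libraries in all. Both toxins are cyclic hexadepsipeptides made by Fusarium moulds of cereals, and they differ in the N-methylated amino acid of the ring, which is valine in enniatin B and phenylalanine in beauvericin. The labels call the doses low and high only, so a shared word is not taken as an equal dose. Whether every replicate number stands for a separate fish is not stated either, and standard errors and p-values therefore measure only the spread between these samples.

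The symbol tisb is an older name for a member of the ZFP36 family, called TIS11B, BRF1 or ZFP36L1 in mammals. In mammals these zinc finger proteins bind AU-rich elements in the 3' untranslated regions of short-lived messengers and recruit the CCR4-NOT deadenylase, so that the messenger loses its tail and is degraded. The p38 to MK2 kinase route and protein kinase B phosphorylate the proteins and weaken their action, and the family genes themselves are induced early after growth factors and stress. In mouse liver, ZFP36L1 is known to act on the messenger of the bile acid enzyme CYP7A1. These roles are background from mammals, and no salmon protein was measured.

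The assay was RNA sequencing of poly(A) messengers, and the values are read counts per gene that the authors normalized over all libraries (normalized counts). Assigned reads numbered 30.7 to 61.7 M per liver library and 23.3 to 40.6 M per intestine library. The deepest libraries were high beauvericin livers 3 and 1, at 61.7 and 57.8 M, and the others of that group had 35.3 to 37.4 M. The labelled tissues carried their own markers. The summed level of 5 hepatocyte markers (apoba, fga, fgg, hpxb and hpxa) was 1160000 to 2270000 in the liver libraries and at most 34.3 in the intestine. In control livers fgg and hpxa had the highest means of the 5, at 718875 and 583703. The 9 enterocyte markers summed to 82400 to 245000 in all toxin-exposed intestines, and to between 1190 and 193000 in control intestines. In liver libraries they summed to 2200 to 7660, with npc1l1 alone at a mean of 4311 in control livers. Control intestines 5 and 6 stood apart: the mean log2 level of those markers was 3.79 and 4.56 in them, 9.66 in low enniatin B intestine 3 and 11.98 to 13.29 in the other 26. Differences from control in intestine are therefore given with and without controls 5 and 6.

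tisb was well covered in both tissues. Between 2584 and 10583 reads stood behind each liver value. The intestine values rested on 1438 to 10289 reads, so counting error was small beside the spread between samples.

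In liver, tisb stood highest after low beauvericin. The 5 low beauvericin livers had normalized counts of 15996, 8713, 10333, 17848 and 12447, and the 6 controls ranged from 3731 through a median of 5216 to 10128. Of the 5 low beauvericin livers 4 lay above the highest control. Groups wholly apart with low beauvericin higher were found for 0.223% of liver genes, and tisb was not among them. The share of genes with 4 of 5 libraries above the highest control was not computed. For tisb the groups overlapped through control 4 alone, the highest of the controls, which exceeded low beauvericin liver 2. The group means were 13067 ± 3816 after low beauvericin (SD, n = 5) and 5895 ± 2346 in controls (SD, n = 6). On the log2 scale the difference was 1.18 ± 0.24 (standard error), a ratio of 2.27 between geometric means. Without control 4 the difference was 1.35. With all controls the estimate was higher than those of 99.5% of the 25157 liver genes in the same comparison. That rank only describes tisb, which was chosen with earlier results of these data known.

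High beauvericin livers held an intermediate level. Their normalized counts ran from 6134 through a median of 8471 to 10344, against 3731, 5216 and 10128 in controls. All 6 lay above the control median, and 1 lay above the highest control. The difference from control was 0.59 ± 0.23, a ratio of 1.51. Against low beauvericin the high dose stood lower, by a log2 difference of -0.59 ± 0.24, with 6 of 6 high beauvericin livers below the low beauvericin median and 3 below its lowest library. The higher level thus belonged to the beauvericin dose labelled low.

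Enniatin B livers lay close to controls. Low enniatin B livers had counts of 4096 at the lowest, 6034 at the median and 8713 at the highest, and the log2 difference from control was 0.12 ± 0.23. High enniatin B livers had 4294, 7522 and 9671 at the same points, with a difference of 0.31 ± 0.23, which was 0.19 without control 2 and 0.48 without control 4. Their 6 libraries formed a broad spread in which 3 lay at 8924 to 9671 and 3 at 4294 to 6119. No library of either enniatin B group exceeded the highest control, while 5 of 6 in each group exceeded the control median. Between the enniatin B doses the difference, high minus low, was 0.19 ± 0.23.

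Set side by side, the gap between the toxins was wider at the dose labelled low. All 6 low enniatin B livers, at 4096 to 8713, lay below the lowest of the low beauvericin livers, at 8713 to 17848, although the highest low enniatin B liver and the lowest low beauvericin liver had the same value to the nearest count. The log2 difference of low enniatin B minus low beauvericin was -1.06 ± 0.24, a ratio of 0.48. Of all liver genes, 0.282% had low enniatin B groups wholly below the low beauvericin group. At the dose labelled high the groups overlapped broadly, with 4294 to 9671 in high enniatin B livers and 6134 to 10344 in high beauvericin livers, and the difference was -0.28 ± 0.23. These comparisons share the low beauvericin or the control libraries with those above and are not independent of them.

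**Figure D1:**
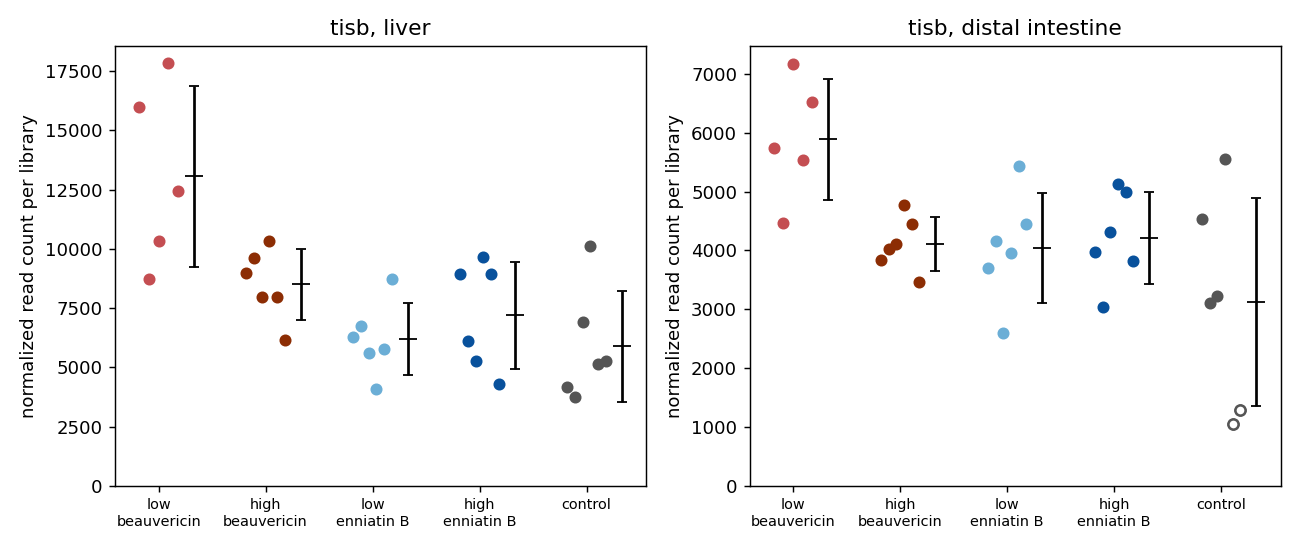
Normalized read count of tisb in each library (points) of liver (left) and distal intestine (right), with the group mean and SD beside each group (bars). In liver, 4 of 5 low beauvericin libraries lie above the highest control at 10128, and the open circles mark control intestines 5 and 6, at 1049 and 1294.

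In the intestine, tisb was again highest after low beauvericin. The 5 low beauvericin intestines had normalized counts of 5736, 4475, 7171, 5530 and 6524. Controls ran from 1049 through a median of 3165 to 5556, and the lowest 2 were controls 5 and 6, at 1049 and 1294. Of the low beauvericin libraries 3 exceeded the highest control, again control 4, and all 5 exceeded the control median. Groups wholly apart with low beauvericin higher were found for 0.516% of intestine genes, and tisb was not among them. The share of genes with 3 of 5 libraries above the highest control was not computed. The other 27 intestine libraries held 2590 to 7171, so controls 5 and 6 were below every one of them. The same 2 libraries had the low enterocyte markers given above, and the part of this in their tisb level was not tested.

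The difference of low beauvericin from all 6 controls was 1.13 ± 0.30 on the log2 scale. Against controls 1 to 4, which had 4106 ± 1164 (SD, n = 4), it was 0.54 ± 0.19. The other 3 exposures lay level with controls 1 to 4. Their normalized counts were 3469, 4071 and 4778 (lowest, median, highest) after high beauvericin. Low enniatin B gave 2590, 4058 and 5437, and high enniatin B 3041, 4141 and 5138. Their log2 differences from all controls were 0.63, 0.58 and 0.65, each ± 0.28. Against controls 1 to 4 they were 0.04, -0.01 and 0.06, all well within their standard error of 0.19.

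The estimates of comparisons between exposed groups do not use the controls. Their standard errors do, since they come from the fit of all 29 intestine libraries, controls 5 and 6 included. The log2 SD of tisb was 0.97 in control intestines and 0.16 to 0.35 in the exposed groups. Low enniatin B intestines stood below low beauvericin intestines by -0.56 ± 0.30, with 5 of 6 libraries below the lowest low beauvericin library. High beauvericin minus low beauvericin gave -0.51 ± 0.30, and here too 5 of 6 libraries lay below that library. Groups wholly apart in either direction were found for 0.359% of intestine genes in the first of these comparisons and for 0.469% in the second. In both, tisb was not among those genes, and the share of genes with 5 of 6 libraries below was not computed. High enniatin B and high beauvericin differed by 0.02 ± 0.28, and high and low enniatin B by 0.07 ± 0.28. Low beauvericin was thus the group with the highest mean in both tissues. The labels do not say whether liver and intestine libraries came from the same fish, so the tissues are not taken as independent observations.

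**Figure D2:**
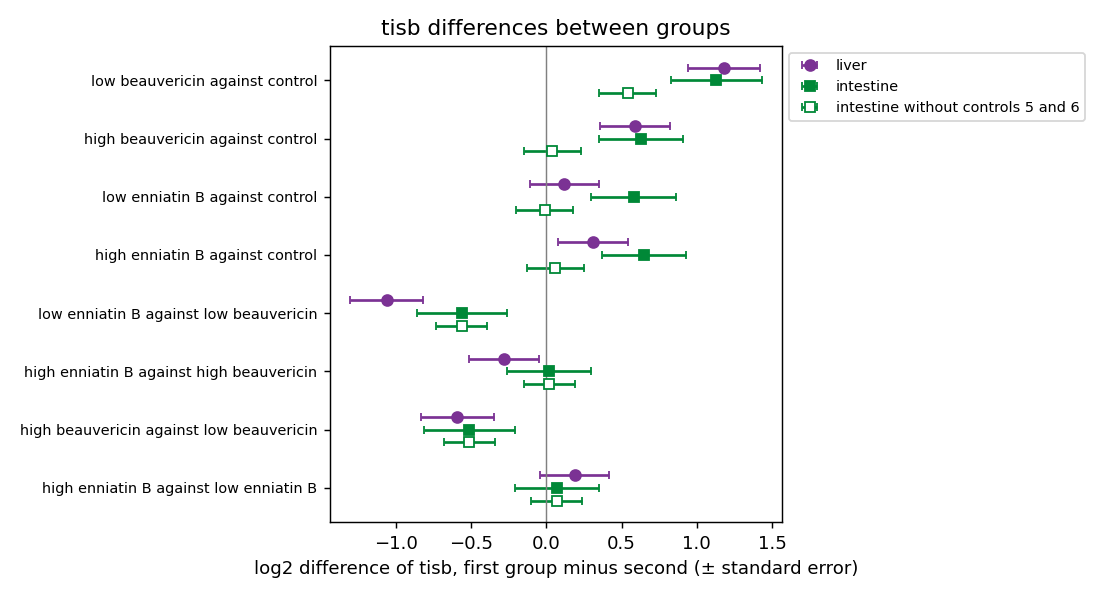
Log2 difference of tisb (horizontal axis, points with standard error) for the 8 comparisons named on the left, first group minus second, in liver (circles) and intestine (filled squares), and in intestine without controls 5 and 6 (open squares). Low beauvericin against control is at 1.18 in liver, 1.13 in intestine and 0.54 without those controls, where the other exposures lie at 0.04, -0.01 and 0.06.

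Ordered by mean normalized count, the 10 groups ran from low beauvericin liver at 13067 through high beauvericin, high enniatin B, low enniatin B and control liver at 8498, 7205, 6206 and 5895. The intestine groups followed as low beauvericin at 5887, high enniatin B at 4215, high beauvericin at 4115, low enniatin B at 4049 and control at 3128. The step to the next mean exceeded the larger of the SDs at 2 places, below low beauvericin liver (a step of 4569 against an SD of 3816) and below low beauvericin intestine (1672 against 1024). The other 7 neighbouring pairs differed by less than that spread, and the libraries of all 9 pairs overlapped. Control liver and low beauvericin intestine were only 8 normalized counts apart.

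The tissue difference depended on the scale. In controls, liver exceeded intestine by 1.07 ± 0.26 on the log2 scale of normalized counts, and by 0.48 without intestine controls 5 and 6. As RPM, which scales tisb reads to all assigned reads of a library alone, the sign turned, to -0.23 ± 0.24, with 77.9 to 184.8 RPM in control livers and 49.7 to 233.7 RPM in control intestines. Without intestine controls 5 and 6 the difference as RPM was -0.8 ± 0.21. No order of the tissues is drawn from these values.

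Variation between libraries of a group was widest in controls. The coefficient of variation of tisb was 29.2% in low beauvericin livers, 17.5% in high beauvericin, 24.5% in low enniatin B, 31.3% in high enniatin B and 39.8% in control livers. Intestine values were 17.4, 11.2, 23.1 and 18.6% for the exposed groups in the same order and 56.4% for controls. The last value includes controls 5 and 6. All 6 control intestines had 3128 ± 1765 normalized counts (SD), and controls 1 to 4 had 4106 ± 1164. Control 4 had the highest tisb of the controls in both tissues. Over the 27 pairs of a liver and an intestine library with the same treatment and number, controls 5 and 6 left out, Pearson's r of tisb after subtraction of group means was 0.41 (permutation p = 0.08, adjusted over 16 relations 0.26) and Spearman's rho was 0.41 (permutation p = 0.076, adjusted 0.31). Without the 2 livers farthest from the median tisb level r was 0.38.

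In liver, the 3 other ZFP36 family genes found by symbol had smaller differences from control than tisb after low beauvericin. Family copies without a gene symbol could not be found. Found by symbol were zfp36l1a and zfp36l1b, the annotated salmon copies named after ZFP36L1, and tisd, which carries an older name of ZFP36L2, was added after its symbol had been seen. In liver, low beauvericin minus control was 0.33 ± 0.25 for zfp36l1a, 0.06 ± 0.15 for zfp36l1b and 0.01 ± 0.20 for tisd. limma's adjusted p-values were 0.74, 0.95 and 1. In intestine against controls 1 to 4 the values were 0.33 ± 0.14 for zfp36l1a, 0.10 ± 0.25 for zfp36l1b and 0.32 ± 0.17 for tisd, beside 0.54 ± 0.19 for tisb, and 0.13, -0.05 and 0.11 beside 1.13 against all controls. The differences between family genes were not tested. None of the 3 passed an adjusted p of 0.05 in any comparison of either tissue. Salmon hold near-identical gene copies, and reads that fit more than 1 copy make the split between such family members uncertain.

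For zfp36l1a the liver groups of the toxins lay apart at the dose labelled high, where those of tisb overlapped. High enniatin B livers had zfp36l1a counts of 2966 at the lowest, 3920 at the median and 4849 at the highest, against 1575, 2061 and 2708 in high beauvericin livers. The groups did not overlap, as was so, with enniatin B higher, for 0.239% of liver genes. The log2 difference was 0.88 ± 0.24, with an adjusted p of 0.27 in limma. The same contrast for tisb was -0.28 ± 0.23, in the other direction. In control livers zfp36l1a was lowest in control 4, at 1292 against 2658 to 4087 in the others, the library in which tisb was highest.

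Between tissues, tisd had its higher level in the intestine. Control livers had 940 ± 174 normalized counts of tisd and control intestines 3186 ± 959 (SD, n = 6 each), a log2 difference of -1.72 ± 0.18. It was -1.51 without intestine controls 5 and 6. As RPM it was -3.02 ± 0.18, and -2.79 ± 0.19 without them. For zfp36l1a the liver minus intestine difference in controls was 1.29 ± 0.20 on normalized counts, and 1.49 without controls 5 and 6. As RPM it was -0.01 ± 0.21, and 0.21 ± 0.23 without them, so no order of the tissues is drawn for zfp36l1a either. For zfp36l1b the values were 2.03 ± 0.19, 2.18, 0.73 ± 0.19 and 0.9 ± 0.21 in the same order.

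**Figure D3:**
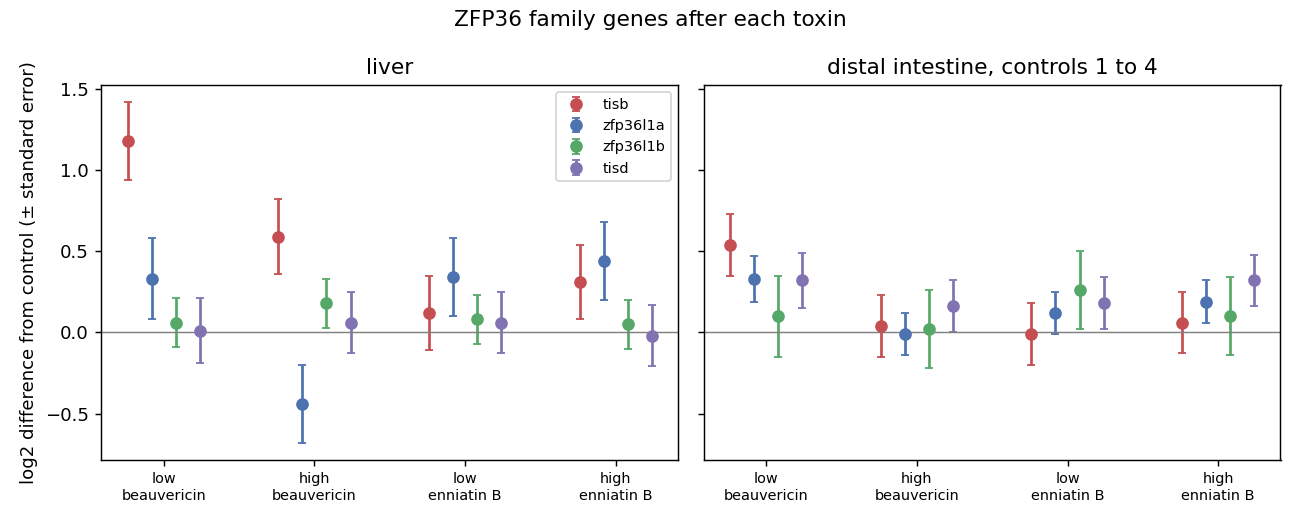
Log2 difference from control (vertical axis, with standard error) of tisb and 3 other ZFP36 family genes after each exposure, in liver (left) and in intestine against controls 1 to 4 (right). After low beauvericin tisb stands at 1.18 in liver beside 0.33 for zfp36l1a, 0.06 for zfp36l1b and 0.01 for tisd, while in intestine tisb is at 0.54, zfp36l1a at 0.33, zfp36l1b at 0.10 and tisd at 0.32.

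Around tisb, 7 lists of genes were read: the family, other binding proteins of AU-rich and 3' end elements, decay enzymes, kinases and partners that act on the family, messengers known as AU-rich targets in mammals, immediate early genes, and genes known to respond to cortisol. They held 72 genes of the file without tisb, of which 71 passed the filter on low values in each tissue. Like tisb, the lists were chosen with earlier results of these data known. Shares of list genes set beside those of all genes are therefore a description, not a test of the lists. In liver after low beauvericin, 1 of 71 passed limma's test, tsc22d3, and it was higher. Over all 25157 genes 0.127% passed, 0.0199% in the higher direction. In the other liver comparisons no list gene passed, nor did any gene of the tissue (0%), with 696 to 2587 genes at an unadjusted p under 0.05. DESeq2 called 2 to 35 genes and edgeR at most 4 in each of those.

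The decay enzymes and the other binding proteins had medians near zero, while single genes lay on either side. In liver, low beauvericin minus control had a median log2 difference of 0.06 over 20 decay enzymes, 0 over 7 other binding proteins and 0.18 over 8 kinases and partners, against 0.01 over all genes. None of them passed. The exosome subunit exosc4 was at 0.35 ± 0.15 (adjusted p = 0.56 in limma) and ppp2cb, a catalytic subunit of the phosphatase PP2A that opposes such kinases, at 0.23 ± 0.09 (adjusted p = 0.53 in limma). The 14-3-3 gene ywhaqa was at 0.28 ± 0.11 (adjusted p = 0.54 in limma). The exosome subunit exosc7 stood at -0.47 ± 0.17 for high enniatin B minus high beauvericin (adjusted p = 0.36 in limma), and rc3h1b, a roquin, at 0.23 ± 0.11 (adjusted p = 0.46 in limma). The AU-rich element binder hnrnpd was at -0.64 ± 0.31 after high beauvericin and at -0.62 ± 0.32 after low beauvericin against control, with adjusted p-values of 0.52 and 0.63 in limma.

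Messengers that the family binds in mammals had estimates on both sides of zero. Of 11 measured in liver, 5 had a higher estimate after low beauvericin than in controls, with a median log2 difference of -0.16 and none past the test. The cyclin gene ccnd2 was at 0.66 ± 0.25 (adjusted p = 0.50 in limma) and the growth regulator myc at 0.77 ± 0.26 (adjusted p = 0.42 in limma). Towards the other side lay dll4, a Notch ligand, at -0.47 ± 0.40 and the survival kinase pim1 at -0.45 ± 0.34. Within liver groups, tisb and these 11 messengers had Pearson correlations over 29 libraries from -0.32 to 0.44 with a median of -0.19, against 0.01 over all genes.

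Immediate early genes, the class in which the family is often placed, had higher estimates with tisb after low beauvericin. In liver 10 of 12 were higher than control, with a median log2 difference of 0.67, against 50.9% of all genes, and none passed the test. An unadjusted p under 0.05 was found for 5 of the 12, and for 14 of all 71 list genes (19.7%), beside 2080 of 25157 genes (8.27%). The lists were chosen with earlier results of these data known, so these shares only describe them. The growth arrest gene gadd45ga stood at 1.41 ± 0.51, egr1 at 1.27 ± 0.60 and ctgf, a matricellular protein, at 1.04 ± 0.34, with adjusted p-values of 0.48, 0.60 and 0.42 in limma. For low enniatin B minus low beauvericin 1 of 12 was higher, with a median of -0.60, and the values come from the same low beauvericin livers. After high beauvericin the median against control was -0.09, unlike the 0.59 of tisb. The members differed in this. High minus low beauvericin was -0.15 ± 0.51 for gadd45ga, -1.86 ± 0.60 for egr1 and -1.24 ± 0.34 for ctgf.

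Cortisol-responsive genes gave the only list gene that passed. The gene tsc22d3, which encodes the glucocorticoid-induced leucine zipper, had normalized counts of 4859, 8321, 7982, 9762 and 5600 in low beauvericin livers, against 1260 at the lowest, 2003 at the median and 4125 at the highest in controls. The groups did not overlap, as was so, in the higher direction, for 0.223% of liver genes. It rose by a log2 difference of 1.65 ± 0.34, with an adjusted p of 0.045 in limma, 0.063 in edgeR and 0.001 in DESeq2. Leaving out any 1 of controls 1, 2, 5 and 6 or of low beauvericin livers 2 to 5 ended the call. High beauvericin livers also held much tsc22d3, at 3531 to 7304, and high minus low beauvericin was -0.34 ± 0.34. Against control, low enniatin B was at 0.02 ± 0.33 and high enniatin B at 0.23 ± 0.33 for this gene. Of the 11 cortisol-responsive genes 10 had a higher estimate after low beauvericin, with a median of 0.14, so several lay near control. Mean normalized counts of fkbp5, per1b, pck2, tat and sgk1 were 665, 2843, 75198, 94566 and 2078 after low beauvericin. In controls they were 611, 2784, 75594, 90232 and 2219. For klf15, cebpb and nfkbiab they were 1057, 4556 and 1063 after low beauvericin, and 695, 4087 and 736 in controls. The IGF-binding protein gene igfbp1a was at 3.15 ± 0.81 and the acute-phase regulator cebpd at 1.23 ± 0.31, with adjusted p-values of 0.20 and 0.15 in limma.

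In the same low beauvericin livers, 2 of 6 markers of red cells fell, epor by 1.30 ± 0.26 and tal1 by 1.39 ± 0.29 on the log2 scale, with adjusted p-values of 0.035 and 0.045 in limma and 0.048 and 0.096 in edgeR. Over all genes 0.107% passed in that direction. The other 4 did not pass, at -1.27 for gata1, -1.17 for alas2, -0.55 for nfe2 and 0.14 for cpox, so that 5 of 6 estimates were lower and 1 was higher. Lower estimates of epor and tal1 were not particular to low beauvericin. After low enniatin B they were at -1.07 ± 0.25 and -1.18 ± 0.28 against control (adjusted p = 0.42 in limma for both). There tisb was at 0.12 ± 0.23. The summed level of the 6 markers was 2170 to 3210 in low beauvericin livers and 3100 to 9250 in controls. In bulk tissue, fewer cells of a type and less RNA per cell cannot be told apart. The summed hepatocyte level, 1450000 to 2270000 after low beauvericin and 1160000 to 1960000 in controls, overlapped. Within groups tisb and the red cell markers had a Pearson's r of 0.01 and a Spearman's rho of 0.04 over 29 livers (permutation p = 0.98 and 0.85, adjusted 0.98 and 0.91). The part of the red cell markers in the group difference of tisb was not tested.

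In intestine, none of the 71 list genes passed limma's test in any comparison. Over all 25601 genes the share called was 0.0156% for low beauvericin against control, 0.00391% for high beauvericin against control and for high enniatin B against high beauvericin, and 0% in the other 5 comparisons, where 391 to 4529 genes had an unadjusted p under 0.05, edgeR called up to 631 and DESeq2 1 to 1569. At an unadjusted p under 0.05 there were 16, 7, 10 and 14 list genes against control after low beauvericin, high beauvericin, low enniatin B and high enniatin B, or 22.5, 9.86, 14.1 and 19.7% of the 71, beside 18.7, 16.9, 17.5 and 17.7% of all genes. Without controls 5 and 6 there were 8, 2, 7 and 5, or 11.3, 2.82, 9.86 and 7.04%, beside 8.18, 4.67, 6.96 and 9.43% of all genes. With all controls edgeR called 0, 2, 6 and 2 of them and DESeq2 4, 3, 6 and 4. Without controls 5 and 6 neither limma nor edgeR called a list gene, and DESeq2 was not run on those libraries. The cortisol-responsive list had a median of 0.43 after low beauvericin against control, 0.30 without controls 5 and 6, and -0.55 for low enniatin B minus low beauvericin. Among its members tsc22d3 was at 0.73 ± 0.30 after low beauvericin against all controls, cebpd at 0.70 ± 0.24 and cebpb at 0.88 ± 0.25, with adjusted p-values of 0.21, 0.19 and 0.17 in limma. Against controls 1 to 4 they were at 0.73 ± 0.33, 0.67 ± 0.27 and 0.56 ± 0.24, with adjusted p-values of 0.59, 0.56 and 0.57 in limma.

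The list genes with the smallest p in intestine, nearly all from comparisons with control, are given with and without controls 5 and 6. After low enniatin B, junb was at -1.59 ± 0.40 and exosc5 at -0.56 ± 0.13, and without those controls at -0.85 and -0.43. The IGF-binding protein gene igfbp1a was at -1.83 ± 0.44 after high enniatin B, and at -1.73 without them. The cyclin gene ccnd1 was at 1.09 ± 0.42 after high enniatin B and at 0.18 without them, and map2k6, a kinase upstream of p38, was at -1.17 ± 0.58 after high beauvericin and at 0.22 without them. The values for exosc1 after high beauvericin were -0.41 and -0.20, for pabpc4 after low enniatin B -0.43 and 0, and for akt2 after high enniatin B 0.30 and 0.08. For low enniatin B minus low beauvericin, myc was at -0.58 ± 0.17. None of these 9 genes passed limma's test at an adjusted p of 0.05 with or without controls 5 and 6.

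Genes whose levels were most like tisb within groups were sought in each tissue, after subtraction of group means, so that the exposures did not enter. Likeness is Pearson's r over 29 liver libraries, given as a description, for points that share libraries, depth and dissection. The middle 95% of 25156 liver genes lay between -0.40 and 0.44. Of the 7320 genes with a name, gadd45ga had the highest r at 0.79 (rho 0.68), followed by cebpd at 0.75 (rho 0.66) and igfbp-1b1, another copy of IGF-binding protein 1, at 0.72 (rho 0.70). The next were diabloa at 0.70, gda (guanine deaminase) at 0.67, ifngr1l1 (an interferon gamma receptor copy) at 0.65, dio3b (a deiodinase that inactivates thyroid hormone) at 0.64 and sqstm (sequestosome, an autophagy receptor) at 0.63. At the other end stood esr2a, an oestrogen receptor of the beta type, at -0.81, the lowest r of all 25156 genes, then tmem256 and spat2 at -0.64 and rtn10 at -0.62.

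Levels by library show what these values rest on. In controls, the 6 livers had gadd45ga counts of 103, 55.9, 374, 1019, 249 and 249 beside tisb counts of 4175, 3731, 6903, 10128, 5145 and 5287, in the order of their numbers. The same livers had 500, 611, 388, 276, 511 and 333 of esr2a. The highest tisb thus went with the highest gadd45ga and the lowest esr2a, and the lowest tisb with the lowest gadd45ga and the highest esr2a. Across groups esr2a did not mirror tisb: low beauvericin minus control was 0.64 ± 0.21 for esr2a, with an adjusted p of 0.42 in limma. Leaving out the 2 livers farthest from the median tisb level gave an r of 0.80 for gadd45ga, 0.72 for cebpd and -0.78 for esr2a. Leaving out the 2 farthest from their own group mean instead, control liver 4 and high enniatin B liver 6, gave 0.69, 0.63 and -0.75 over 27 livers.

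The family and the lists fell unevenly on this scale. zfp36l1a had an r of -0.60 with tisb in liver (rho -0.58), outside the middle 95% of genes, and -0.42 without control liver 4 and high enniatin B liver 6, while zfp36l1b was at 0.27 and tisd at -0.28. Immediate early genes had a median r of 0.29, with 11 of 12 above zero, and cortisol-responsive genes 0.33, with 8 of 11 above zero, beside 0.01 over all genes. The decay enzymes had a median of -0.02. tsc22d3, which rose with tisb after low beauvericin, was at 0.33 within groups.

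**Figure D4:**
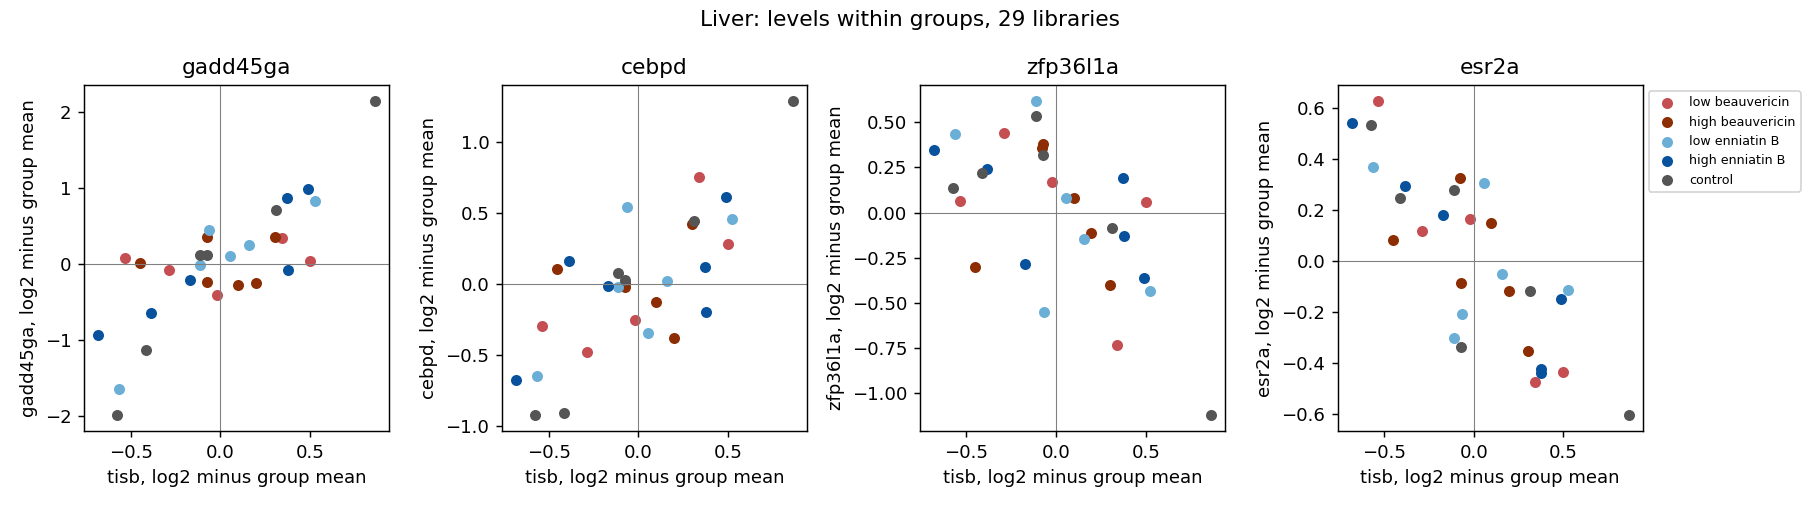
Levels of gadd45ga, cebpd, zfp36l1a and esr2a (vertical axes) against tisb (horizontal axes) in 29 liver libraries, each as log2 minus the mean of its group, coloured by exposure. The Pearson r is 0.79, 0.75, -0.60 and -0.81 in that order, and the point farthest to the right is control liver 4.

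In intestine the list of like genes was another one. Over 27 libraries, controls 5 and 6 left out, htr2cl1 (a serotonin receptor copy) and zgc:162816 had the highest r with tisb at 0.74, followed by zgc:101540 and prxl2b at 0.72, sytl5 and hacd3 at 0.71, and nr2f2 (an orphan nuclear receptor) and folr (a folate receptor) at 0.70. The lowest were psap (the lysosomal precursor prosaposin) at -0.74, zgc:136971 at -0.73, mt2 (metallothionein) at -0.72 and lrpap1 (a receptor chaperone) at -0.70. All of these values came nearer to zero without the 2 libraries farthest from the median of tisb, low enniatin B intestine 3 and low beauvericin intestine 3. The highest then ran from 0.53 for folr to 0.63 for htr2cl1, and the lowest from -0.67 for psap to -0.55 for lrpap1. The middle 95% of 25567 genes lay between -0.52 and 0.55 over the 27 libraries, a wider range than in liver. cebpd, at 0.75 in liver, had an r of 0.48 here, while gadd45ga had -0.05. Among the cortisol-responsive genes 8 of 10 had an r above zero, with a median of 0.43, including sgk1 at 0.54 and tsc22d3 at 0.52, whereas immediate early genes had a median of -0.08. Without the same 2 libraries sgk1 was at 0.31, tsc22d3 at 0.45 and cebpd at 0.52. zfp36l1a, at -0.60 in liver, had an r of -0.04.

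Within intestine groups, tisb was higher in libraries with a higher mean level of the enterocyte markers. Of the 9 markers taken singly, 7 had an r with tisb above zero, and r ran from -0.47 to 0.56. The mean log2 level of the 9 markers and tisb had a Pearson's r of 0.62 over 27 libraries (permutation p = 0.0013, adjusted over 16 relations 0.021) and a Spearman's rho of 0.51 (permutation p = 0.0085, adjusted 0.086). Without the 2 libraries farthest from the median of tisb, low enniatin B intestine 3 and low beauvericin intestine 3, r was 0.57, and it was 0.57 as well without control 3 and low enniatin B 3, the 2 farthest from the median marker level. Smooth muscle markers gave an r of 0.43 (permutation p = 0.047, adjusted 0.19) and a rho of 0.29 (permutation p = 0.19, adjusted 0.51), and r was 0.35 without the libraries farthest in tisb. Leukocyte markers gave an r of -0.51 (permutation p = 0.029, adjusted 0.15) and a rho of -0.41 (permutation p = 0.062, adjusted 0.31), and r was -0.32 without the same pair. Depth gave an r of 0.20 and a rho of 0.10 (permutation p = 0.40 and 0.67, adjusted 0.64 and 0.77). In liver, hepatocyte markers had an r of 0.56 with tisb (permutation p = 0.0072, adjusted 0.058) and a rho of 0.51 (permutation p = 0.011, adjusted 0.086), and r was 0.45 without the 2 farthest livers. Taken singly, all 5 had an r above zero, from 0.23 to 0.48. Hepatocyte content and the level of these genes per cell cannot be told apart here. The summed enterocyte level of the low beauvericin intestines was 149000 to 200000 (median 164000). It was 116000 to 186000 (median 145000) in high beauvericin intestines, where tisb was lower. Low enniatin B intestines had 82400 to 245000 (median 183000) and high enniatin B intestines 156000 to 189000 (median 171000). The part of these markers in the group differences of tisb was not tested.

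**Figure D5:**
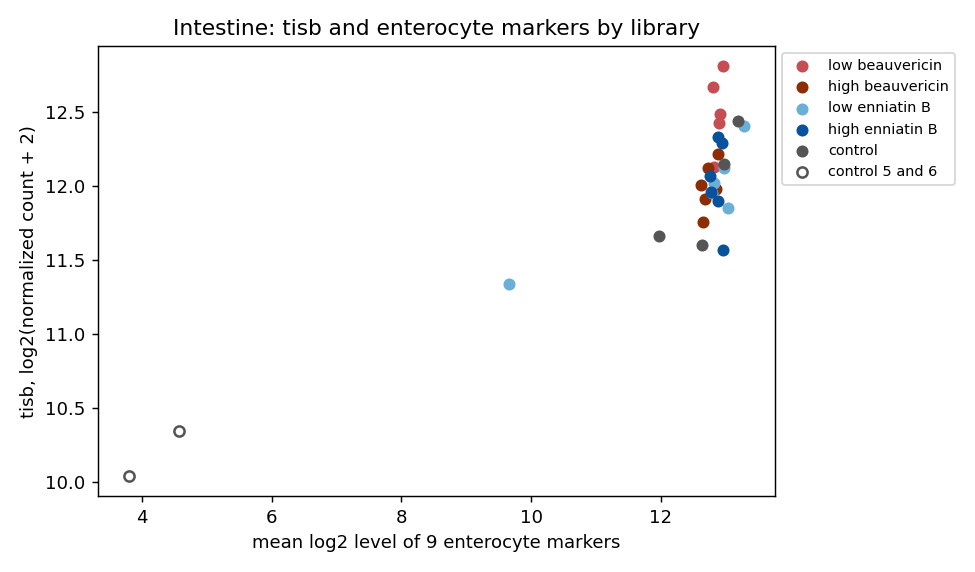
Log2 level of tisb (vertical axis) against the mean log2 level of 9 enterocyte markers (horizontal axis) in the 29 intestine libraries, coloured by exposure. Control intestines 5 and 6 (open circles) lie at 3.79 and 4.56 on the marker axis with the lowest tisb, and low enniatin B intestine 3 at 9.66 comes next.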

How the data were processed

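Total RNA (QIAzol, EZ1 kit) was enriched for poly(A) messengers and sequenced as paired NovaSeq reads, per the labels' protocols. Trim Galore 0.4.2, FastQC, HISAT2, featureCounts of Subread and DESeq2 1.18.1 are named in the submitters' processing notes. No coordinates appear, because the genome build is not given in the sources used here. The deposited values are a signal, read counts that the authors divided by a factor for each library. The reads were recovered from the steps between values: 99.9999% of values lay within 0.1 read of a whole number (largest distance 0.17). The lowest mean value in the file was 21.1. Gene names come from the Ssal_v3.1 assembly, used for names alone; 24184 identifiers matched, 7529 of them to a true symbol, and the rest could join no list.

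Because the values are not raw counts, limma 3.58.1 (R 4.3.3, statmod 1.5.0, trend and robust moderation) replaced the planned count test. It was fitted to log2 of value plus 2, a scale that understates changes of weak genes, for genes at 10 or more in at least 5 libraries of a tissue, with all 29 libraries and Benjamini-Hochberg adjustment at 0.05. edgeR 4.0.16 and DESeq2 1.42.0 were run on the recovered reads. The fit was also run on simulated counts with known changes, a single dispersion for all genes and no deviating libraries. That run cannot show how the fit handles libraries such as control intestines 5 and 6. Correlations with cell markers used 100000 permutations within groups. Libraries of a group all differed beyond sampling noise (chi-square per degree of freedom at least 28.6). The gene and the lists were chosen with earlier results of these data known. Named were tisb, its family, list members past the threshold or, in a list and tissue with none, the 2 with the smallest p, and per tissue the 8 named genes with the highest and 4 with the lowest correlation with tisb. 1 gene that the rule names is not reported here. Other genes are named after their values were seen: dll4, pim1, sgk1, fkbp5, per1b, pck2, tat, klf15, nfkbiab and the red cell and hepatocyte markers. Alternatives changed the pseudocount, filter, scaling, test, block and libraries; 5 were added after seeing the data, namely leaving out low enniatin B intestine 3 with controls 5 and 6, edgeR without those controls, RPM for tisb and for its family, and correlations without the most deviating libraries.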

Additional observations from a re-analysis of the deposited data

Results flagged for a closer look

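Among 8 genes shown by library (tisb, its 3 relatives, tsc22d3, gadd45ga, cebpd and esr2a), 75 groups of libraries were checked for a single value far from the rest. For normally distributed values, chance gives about 5% of such groups. The check used normalized counts, not log2 values, and a long upper tail is flagged more often on that scale. 5 of the 75 were flagged, close to the chance share, and none was of tisb itself. Each was the highest value of its group. Control liver 4 had 1019 normalized counts of gadd45ga, with the next control at 374. Control intestine 4 had 5325 of tsc22d3, with the next at 2432, and 2102 of cebpd, with the next at 1050. The control numbered 4 also had the highest tisb of the controls in both tissues. Control intestine 6, one of the controls nearly without enterocyte markers, had 1934 of zfp36l1a beside 1199. Low enniatin B intestine 3 had 3236 of zfp36l1b beside 1969, and it was also the exposed intestine with the fewest enterocyte transcripts. The causes were not tested.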

How the results depend on the processing

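The tisb differences moved by less than the spread between replicates in 333 of 334 alternatives. The exception was control liver against control intestine, -0.23 as RPM. The same contrast as RPM without controls 5 and 6, at -0.8 ± 0.21, was not among the 334 and lay farther still from the main value, also beyond that spread. That spread is an average of the log2 SDs of the 2 groups compared, with all libraries in. For control intestines the SD is 0.97, with controls 5 and 6 in it. Differences from control that changed without those controls thus counted as unmoved, and the count does not measure how far intestine results rest on them. Signs turned also in intestine, for low enniatin B against control (-0.01 without controls 5 and 6) and, under leave-outs or TMM scaling, for 2 differences near zero, high enniatin B against high beauvericin (0.02) and against low enniatin B (0.07). edgeR and DESeq2 gave 0.36 to 0.41 in intestine for the 3 exposures other than low beauvericin against control. Leaving out 1 library gave 1.06 to 1.35 for low beauvericin against control in liver and 0.87 to 1.35 in intestine.

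The count of list genes called was 1 for low beauvericin against control in liver, 0 in edgeR and with the 2 groups alone, and 0 to 2 without 1 library (2 without control 3 or 4). DESeq2 called 1 for high beauvericin against control and 4, all lower, for low enniatin B against low beauvericin. In intestine against control, edgeR called 2 (high beauvericin), 6 (low enniatin B) and 2 (high enniatin B), and DESeq2 4 (low beauvericin), 3, 6 and 4. Leaving out 1 library gave 0 to 5 for low beauvericin, 0 to 2 for low enniatin B and 0 to 5 for high enniatin B, the upper value being without control 4. Over all genes, limma called 32 in liver for low beauvericin against control, edgeR 21 and DESeq2 80; in intestine against control limma called 0 to 4, edgeR 371 to 631 and DESeq2 1299 to 1598. The cause was not tested.

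With all 29 intestine libraries the likeness of sytl5, nr2f2 and psap to tisb reversed, to -0.53, -0.50 and 0.40. Over both tissues, 7 other alternative likeness values moved beyond the sampling interval of the main r, and 50 did not. The numbers do not pair libraries within a tissue: 3 of 29 livers and 6 of 29 intestines correlated best with their own number. Across tissues 28 of 29 livers did, a hint from the data, with 27 of 29 pairs over 0.1. With the number as a replicate block, tisb in low beauvericin against control was 1.15 in liver and 1.07 in intestine, and the list gene called in liver stayed at 1.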
